A study of Mus musculus with 6 samples.

Results

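The genes described here are 10 immediate early genes outside the AP-1 family: Egr1, Egr2, Egr3, Nr4a1, Nr4a2, Nr4a3, Ier2, Ier3, Ier5 and Arc. They were taken by symbol from a table of 24062 gene symbols, and all 10 passed the filter on low counts that left 15742 genes for testing. Messenger RNA was measured in bone marrow cells of C57BL/6 mice that had been sorted for Kit, the stem cell factor receptor carried by blood stem and progenitor cells. The series description also calls the sorted cells lineage-negative. The KO group is 3 Ints11 flox/flox mice that carry Mx1-Cre, a transgene whose Cre is driven by an interferon-inducible promoter and is not limited to blood cells. The WT group is 3 littermates, and the sources used here do not say whether these carried Mx1-Cre. Both groups are described as sorted 4 days after injection of poly(I:C), an RNA mimic that induces interferon and thereby Cre. Each library is 1 mouse and is named here by genotype and mouse number (KO_339, KO_340, KO_345, WT_341, WT_343, WT_344).

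Immediate early genes are transcribed within minutes of a stimulus, before any new protein is made. Growth factors, cytokines and stress act through the ERK and p38 kinases on serum response factor (SRF) with its ternary complex partners, and through CREB, at promoters that already hold a paused polymerase. The transcripts are short-lived, so their levels follow recent signals to the cell, handling of the tissue included. INTS11 is the endonuclease of Integrator, a complex that cleaves nascent RNA at small nuclear RNA genes and near promoters. In a human cell line, Integrator was found at immediate early genes and took part in their induction by epidermal growth factor. EGR and NR4A proteins are transcription factors, and the IER proteins and Arc have other functions that are given with each gene.

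Library totals lay between 127011537 and 142983542 counts in KO and between 124074531 and 166860739 counts in WT libraries, so the genotypes overlapped in depth. Levels below are in CPM, the usual depth-scaled count, taken relative to the TMM-scaled library total. Ints11, listed as Cpsf3l, had 61.0 ± 3.08 CPM in KO and 81.7 ± 9.59 CPM in WT libraries (SD, n = 3 each; log2 change -0.42 ± 0.10 (SE), adjusted p = 0.0174). Reads over exons that are not deleted also count for the gene, so its level checks the labels only in part, and the call was lost without KO_340 (adjusted p = 0.0557, edgeR) or KO_345 (0.0541). With the level of mature neutrophil markers as a covariate its log2 change was -0.22 and did not pass (adjusted p = 0.215, edgeR). Kit was present at 228 ± 9.28 CPM in KO and 211 ± 11.5 CPM in WT libraries. Mature neutrophil markers were also abundant in every library, with a summed level of 45800 to 60100 CPM in KO and 12200 to 38300 CPM in WT libraries. The WT libraries were spread widely in this sum, with 38300 CPM in WT_341, 12200 CPM in WT_343 and 22300 CPM in WT_344, and WT_341 lay nearest to the KO libraries. Counts of Xist and of Y-linked genes put KO_339, KO_340 and WT_341 as males and KO_345, WT_343 and WT_344 as females.

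All 10 early genes were higher in every KO library than in every WT library. Of the 10, 9 rose at an adjusted p under 0.05 and 0 fell, and Egr1 alone did not pass. Many genes differed in this comparison. Of all tested genes, 16.0% were called higher and 19.9% lower, and 25.6% had every KO library above every WT library. The median log2 change of the 10 genes was 1.36, against 0.01 over all tested genes. Tests used the quasi-likelihood method of edgeR with p adjusted by Benjamini-Hochberg over the 15742 genes, changes are KO over WT, and every such change carries the standard error of the fit. In bulk samples, fewer cells of a type and less RNA per cell cannot be told apart, and neither can more cells and more RNA per cell. With single libraries left out, the higher calls among the 10 genes numbered 7 without KO_339, 6 without KO_340 and 7 without KO_345, beside 6.54%, 10.3% and 8.27% of all genes in those fits. They numbered 9 without WT_341, 7 without WT_343 and 6 without WT_344, beside 22.1%, 10.7% and 8.92% of all genes. The calls that varied were those of Egr1, Nr4a2, Nr4a3 and Ier2.

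**Figure D1:**
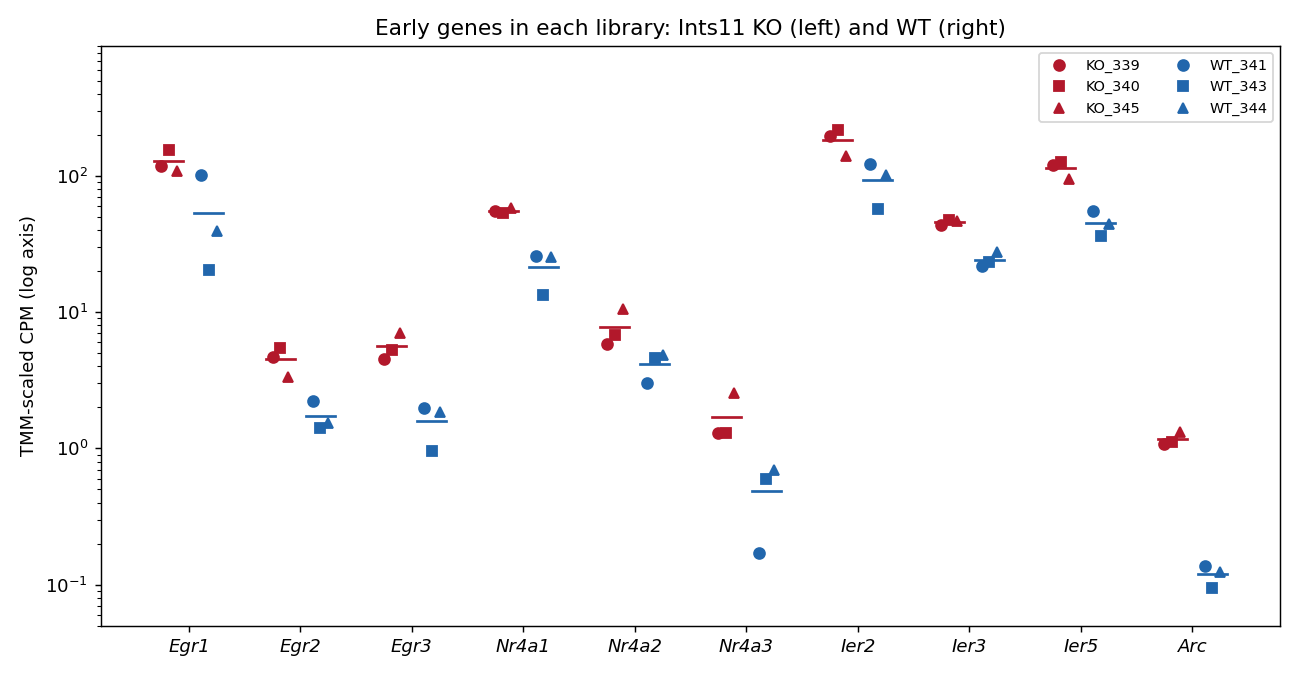
Level of the 10 early genes in each library, in TMM-scaled CPM on a log axis, with the KO libraries (red) left of the WT libraries (blue). Points are single libraries and bars are means of 3. For each gene the lowest red point lies above the highest blue point, by the least for Egr1, where KO_345 is at 109 CPM and WT_341 at 102 CPM.

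Egr1, Egr2 and Egr3 encode zinc finger transcription factors that bind GC-rich DNA. Egr1 restrains division of mouse blood stem cells and helps to keep them in their niche. It lies on chromosome 18 (34859823 to 34864984, forward strand; GRCm38, the assembly that mm10 names) and held 119, 156 and 109 CPM in KO_339, KO_340 and KO_345, against 102, 20.3 and 39.3 CPM in WT_341, WT_343 and WT_344. The WT libraries differed 5.02-fold among themselves, and WT_341 came close to the KO libraries. The log2 change of Egr1 was 1.25 ± 0.52 (SE) and did not pass (adjusted p = 0.0933, edgeR). Without WT_341 the change was 2.09 and passed (adjusted p = 0.00844, edgeR), whereas without any other single library it was 0.86 (WT_343) to 1.37 (KO_345) and did not (adjusted p = 0.159 to 0.231). With all 6 libraries limma-voom called Egr1 (1.58, adjusted p = 0.0395; 1.73 and 0.00704 with sample quality weights) and DESeq2 did not (1.25, adjusted p = 0.118).

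Egr2, which is needed for hindbrain and myelin formation and acts in macrophage and lymphocyte differentiation, was far less abundant. It held 4.71, 5.49 and 3.37 CPM in the KO libraries, against 2.23, 1.41 and 1.54 CPM in the WT libraries. Its lowest KO library was 1.51 times its highest WT library, and it rose 2.62-fold (log2 change 1.39 ± 0.26, adjusted p = 0.00912, edgeR). Egr3, which acts in muscle spindles and in T cells together with Egr2, held 4.54, 5.29 and 6.99 CPM in the KO libraries, against 1.97, 0.955 and 1.85 CPM in the WT libraries. The groups were 2.31-fold apart at their nearest libraries, and Egr3 rose 3.52-fold (log2 change 1.82 ± 0.31, adjusted p = 0.00693, edgeR). The last paralogue, Egr4, did not pass the filter, with 6, 6 and 11 counts in the KO libraries and 1, 5 and 2 counts in the WT libraries.

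Promoter sequence is shown for Egr2, Nr4a1 and Nr4a2, which hold matches to response elements of these signals. RefSeq's table has 5 start sites for Egr2, of which the one shown is that of the transcript GENCODE numbers first, 2394 bases inside the outermost annotated start. The 250 bases before it on the forward strand, chr10:67537619-67537868, are printed 5′ to 3′ from RefSeq's GRCm38.p6 table, with capitals on the CArG box, the letters that SRF recognises. Matches to the CREB half-site named further on are not capitalised in it.
Egr2: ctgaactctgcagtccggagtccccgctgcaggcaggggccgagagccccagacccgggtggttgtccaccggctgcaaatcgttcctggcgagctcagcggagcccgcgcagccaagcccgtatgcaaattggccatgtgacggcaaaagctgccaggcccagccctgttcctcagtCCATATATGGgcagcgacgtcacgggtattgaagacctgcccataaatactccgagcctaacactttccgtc
The CArG box starts at position -72 from the start site. It was found in 1 of the 6 members with a promoter in that table (Egr2, Nr4a1, Nr4a2, Nr4a3, Ier3 and Ier5), in a window of 250 bases and on either strand. Of all 27025 genes of the table, 1.62% held a CArG box in any of their promoters.

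Nr4a1, Nr4a2 and Nr4a3 encode orphan nuclear receptors, which work as transcription factors without a known natural hormone. In mice, loss of Nr4a1 and Nr4a3 together leads to acute myeloid leukaemia, and Nr4a1 is needed for patrolling monocytes. Nr4a1 held 55.7, 53.5 and 57.7 CPM in the KO libraries, against 26.0, 13.3 and 25.2 CPM in the WT libraries. The KO libraries were within 1.08-fold of each other and at least 2.06 times the highest WT library. Nr4a1 rose 2.59-fold (log2 change 1.37 ± 0.24, adjusted p = 0.00705, edgeR).

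Nr4a2, best known from dopamine neurons, held 5.80, 6.84 and 10.6 CPM in the KO libraries, against 3.02, 4.61 and 4.87 CPM in the WT libraries. The nearest libraries of the groups were only 1.19-fold apart. Nr4a2 rose 1.86-fold (log2 change 0.90 ± 0.28, adjusted p = 0.0409, edgeR), the smallest estimate among the 10 genes. Nr4a3 held 1.30, 1.30 and 2.53 CPM in the KO libraries, against 0.170, 0.595 and 0.695 CPM in the WT libraries. Its lowest library, WT_341, had 21 counts, and the WT libraries spanned 4.08-fold. Nr4a3 rose 3.49-fold (log2 change 1.80 ± 0.53, adjusted p = 0.0335, edgeR). Nr4a2 and Nr4a3 were lowest in WT_341, the library with the highest Egr1 of its genotype. The calls of both were marginal. Leaving out WT_343, WT_344, KO_340 or KO_345 took the adjusted p of Nr4a2 to between 0.0634 and 0.105 and that of Nr4a3 to between 0.0537 and 0.104. Nr4a2 was also lost without WT_341 (adjusted p = 0.0596) and with sample quality weights in limma-voom (0.0727), and Nr4a3 without KO_339 (0.0666).

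The promoters of Nr4a1 and Nr4a2 are shown with the half-site of the CREB element, TGACG on either strand, in capitals. Nr4a1 is chr15:101266596-101266845 on the forward strand and Nr4a2 is chr2:57124004-57124253 on the reverse strand, each 250 bases before its only start site in the same table, 5′ to 3′. That of Nr4a1 lies 12577 bases inside the outermost start that GENCODE annotates, and that of Nr4a2 is the outermost. The Nr4a3 promoter, which also holds the half-site, is not shown.
Nr4a1: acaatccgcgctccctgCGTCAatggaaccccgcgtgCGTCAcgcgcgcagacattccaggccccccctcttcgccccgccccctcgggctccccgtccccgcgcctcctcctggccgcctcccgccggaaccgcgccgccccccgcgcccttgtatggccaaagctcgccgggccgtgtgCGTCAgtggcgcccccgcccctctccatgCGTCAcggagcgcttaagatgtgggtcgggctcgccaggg
Nr4a2: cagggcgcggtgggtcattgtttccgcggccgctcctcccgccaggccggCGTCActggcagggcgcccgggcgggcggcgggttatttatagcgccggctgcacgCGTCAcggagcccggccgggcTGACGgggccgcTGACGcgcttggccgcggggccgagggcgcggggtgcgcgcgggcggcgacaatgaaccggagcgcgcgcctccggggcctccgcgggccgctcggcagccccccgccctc
Each holds 4 matches. TGACG was found in 4 of the 6 members with a promoter (Egr2 and the 3 NR4A genes), against 19.8% of all genes. The whole palindrome TGACGTCA, which contains TGACG, was found in 0 of 6 (1.77% of all genes). The EGR motif GCGNGGGCG was found in Nr4a1 and Nr4a2 (5.33% of all genes), TATAAA in Nr4a2 (14.3%) and the NR4A monomer motif AAAGGTCA in 0 of 6 (1.55%). All were searched on both strands, and a match describes letters in the window, not occupancy.

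Ier2, Ier3 and Ier5 are short genes of 1 or 2 exons whose products are unrelated to the EGR and NR4A factors. IER2 is a nuclear protein and a relative of IER5, which activates the heat shock factor HSF1 by recruiting the phosphatase PP2A. Ier2 held 198, 219 and 139 CPM in the KO libraries, against 123, 57.6 and 102 CPM in the WT libraries. The lowest KO library, KO_345, was 1.13 times WT_341, and Ier2 rose 1.97-fold (log2 change 0.98 ± 0.28, adjusted p = 0.0318, edgeR). This call was lost without KO_339 (adjusted p = 0.102), KO_340 (0.0971) or WT_344 (0.0757) and with no low-count filter (0.0937).

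Ier5 held 121, 127 and 95.3 CPM in the KO libraries, against 55.0, 36.2 and 44.5 CPM in the WT libraries. The groups were 1.73-fold apart at their nearest libraries, and Ier5 rose 2.53-fold (log2 change 1.34 ± 0.17, adjusted p = 0.00345, edgeR). Ier3, also called IEX-1, which modulates survival, NF-kB and ERK signalling, held 43.8, 47.4 and 47.0 CPM in the KO libraries, against 21.7, 23.3 and 27.7 CPM in the WT libraries. Both genotypes were tight, and Ier3 rose 1.90-fold with the smallest error of the 10 genes (log2 change 0.93 ± 0.11, adjusted p = 0.00324, edgeR). Ier5 and Ier3 passed in each of the 15 alternative fits.

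Arc encodes a protein of synaptic plasticity that is related to retroviral Gag and assembles into capsids. It was the least abundant of the 10 genes in CPM and had the largest change among them. Arc held 157, 147 and 178 counts in KO_339, KO_340 and KO_345, against 17, 15 and 18 counts in WT_341, WT_343 and WT_344. These are 1.08, 1.12 and 1.33 CPM in the KO libraries, against 0.138, 0.0949 and 0.124 CPM in the WT libraries, with the lowest KO library 7.81 times the highest WT library. Arc rose 9.86-fold (log2 change 3.30 ± 0.29, adjusted p = 0.00144, edgeR), which put it at the 99.4th percentile of the log2 changes of all tested genes, and it passed in each of the 15 alternative fits.

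**Figure D2:**
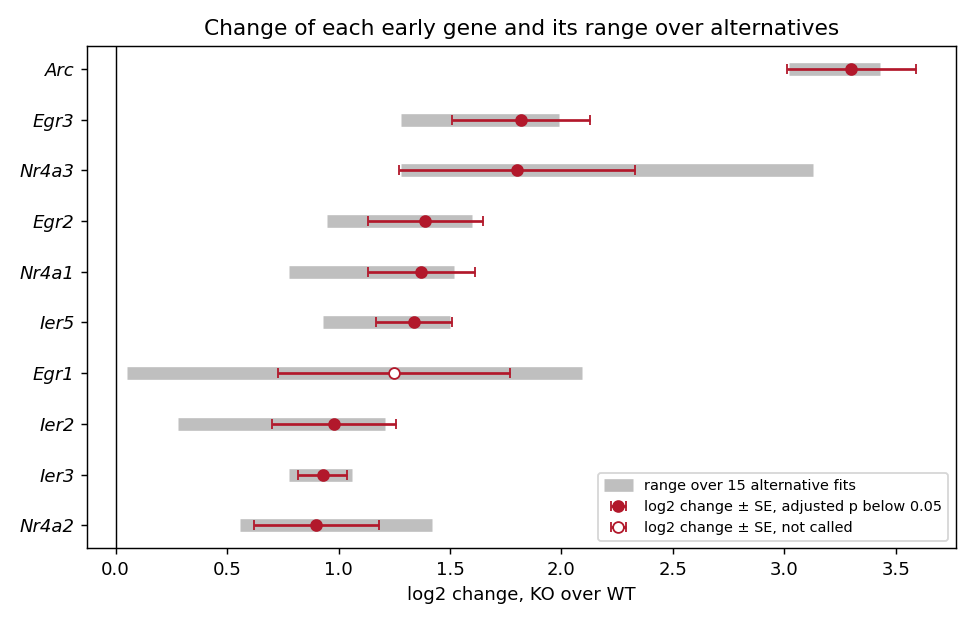
Log2 change (KO over WT) of each early gene with its standard error, with a filled point where the adjusted p was under 0.05, and in grey the range of the change over 15 alternative fits. Every range lies above 0. That of Egr1 runs from 0.05 to 2.09, while those of Ier3 (0.78 to 1.06) and Arc (3.02 to 3.43) are narrow.

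Per kilobase of annotated exon, the order of levels was alike in both genotypes. In KO libraries Ier2 led with 122 ± 27.4 CPM per kb (SD, n = 3), followed by Ier3 (40.7 ± 1.75), Ier5 (35.0 ± 5.19), Egr1 (28.6 ± 5.51) and Nr4a1 (15.9 ± 0.589). Nr4a2 (1.91 ± 0.627), Egr2 (1.33 ± 0.316) and Egr3 (1.27 ± 0.285) formed a lower tier, and Arc (0.384 ± 0.0454) and Nr4a3 (0.286 ± 0.119) were lowest in CPM per kb. In WT libraries the CPM per kb were 61.7 ± 21.8 for Ier2, 21.4 ± 2.76 for Ier3, 13.8 ± 2.88 for Ier5, 12.0 ± 9.51 for Egr1 and 6.12 ± 2.02 for Nr4a1. They were 1.03 ± 0.247 for Nr4a2, 0.508 ± 0.13 for Egr2, 0.361 ± 0.126 for Egr3, 0.0813 ± 0.0465 for Nr4a3 and 0.0389 ± 0.00717 for Arc. Among neighbours in this order, the libraries overlapped in KO for Ier3 with Ier5, Ier5 with Egr1, Nr4a2 with Egr2, Egr2 with Egr3, and Arc with Nr4a3. In WT they overlapped for Ier5 with Egr1, Egr1 with Nr4a1, Egr2 with Egr3, and Nr4a3 with Arc. The last pair is the only one whose order differed between the genotypes.

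The genes did not vary alike between mice of 1 genotype. Of the WT libraries, WT_341 was highest for 7 of the 10 genes and lowest for the other 3 (Nr4a2, Nr4a3 and Ier3), and WT_343 was lowest for those 7. Of the KO libraries, KO_345 was lowest for Egr1, Egr2, Ier2 and Ier5 and highest for Egr3, the 3 NR4A genes and Arc, and KO_340 was highest for the remaining 5. The biological coefficient of variation in the edgeR fit was 0.45 for Nr4a3 and 0.427 for Egr1, higher than in 94.1% and 92.8% of all tested genes. It was 0.128 for Ier3 and 0.157 for Ier5, the only members under the median of all tested genes.

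**Figure D3:**
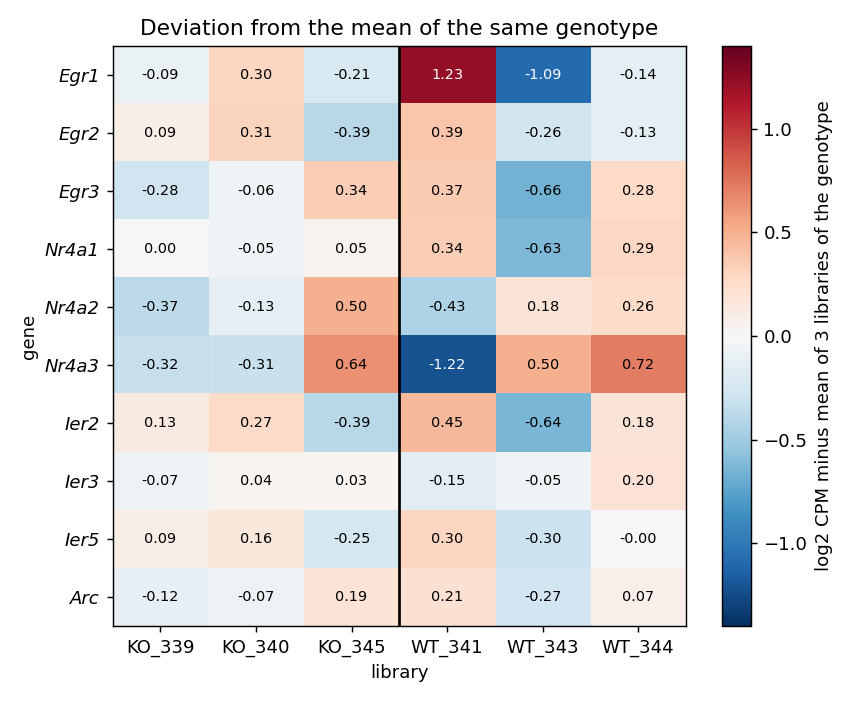
Deviation of each library from the mean of its own genotype, in log2 CPM (rows, genes; columns, KO libraries left of WT libraries). Egr1 lies 1.23 above its genotype mean in WT_341 and 1.09 below it in WT_343 (-1.09), while Nr4a3 in WT_341 is at -1.22.

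Because the sexes were split unevenly between the genotypes, the genes were also compared within each sex. In males, Egr1 averaged 137 CPM in the 2 KO libraries and held 102 CPM in the WT library, a ratio of 1.35. In females it held 109 CPM in the KO library and averaged 29.8 CPM in the 2 WT libraries, a ratio of 3.67. All 10 genes were higher in KO within both sexes, which follows from every KO library lying above every WT library and is no separate check. The other ratios lay between 1.70 (Ier2) and 7.95 (Arc) in males and between 1.74 (Ier2) and 12.2 (Arc) in females. A test of the difference in effect between sexes passed for 0 of the 10 genes (adjusted p = 0.405 to 0.999, edgeR, and 0 at an unadjusted p of 0.05), with a single male WT and a single female KO library behind it. Of all tested genes only 0.502% passed that test, so the count says little about these 10. With sex as a covariate the same 9 genes passed, beside 17.1% of all genes called higher in that fit, and Egr1 had a log2 change of 1.15 (adjusted p = 0.0707, edgeR).

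Marker levels of several other cell types, though not all, differed between the genotypes. Of all tested genes, 16.0% were called higher and 19.9% lower, and 25.6% had every KO library above every WT library. Of 12 mature neutrophil markers with a row in the table, 9 were higher in every KO library than in every WT library and 3 were called higher (summed levels as given above, none at 0). Of 8 mast cell, basophil and eosinophil markers, 7 were called higher, with a summed level of 3180 to 3720 CPM in KO and 1300 to 1780 CPM in WT libraries. Of 8 megakaryocyte markers 4 were called higher (98.2 to 145 CPM in KO, 40.8 to 62.5 CPM in WT libraries). So were 4 of 9 stromal and endothelial markers (33.3 to 114 CPM in KO, 19.1 to 35.3 CPM in WT libraries). The stromal and endothelial sums overlapped, with KO_340 at 33.3 CPM and WT_343 at 35.3 CPM. Of 9 monocyte markers 6 were called lower (1020 to 1070 CPM in KO, 1660 to 1890 CPM in WT libraries). The 9 progenitor markers were Kit, Cd34, Myb, Gata2, Mpo, Elane, Prtn3, Ctsg and Flt3, of which 2 were called higher and 4 lower. Their sum was 8930 to 10800 CPM in KO and 16600 to 22100 CPM in WT libraries. A sum weighs abundant genes most, and Kit (228 CPM in KO, 211 CPM in WT libraries) was a small part of it. Kit itself did not pass (log2 change 0.11 ± 0.07, adjusted p = 0.269, edgeR). Of 9 T and NK cell markers 3 were called higher and 1 lower, while their summed level was lower in every KO library (216 to 232 CPM in KO, 271 to 307 CPM in WT libraries). Sums also overlapped between the genotypes for macrophage (446 to 700 CPM in KO, 323 to 580 CPM in WT libraries), B cell (57.2 to 99.3 CPM in KO, 30.9 to 97.7 CPM in WT libraries) and erythroid markers (92.9 to 144 CPM in KO, 65.7 to 256 CPM in WT libraries), with 1 of 9, 0 of 9 and 0 of 8 called higher. No marker of any list was at 0 in all libraries. The part of these cells in the early gene levels was not tested beyond the fit that follows.

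With the mean level of the neutrophil markers as a covariate, all 10 early genes had a positive log2 change and 3 passed, beside 3.39% of all tested genes called higher in that fit. These were Arc (3.02, adjusted p = 0.0181), Ier3 (1.01, adjusted p = 0.0200) and Ier5 (0.93, adjusted p = 0.0253, edgeR). Egr1 went to 0.05 (adjusted p = 0.946) and Ier2 to 0.28 (adjusted p = 0.561). Egr2 (0.95, adjusted p = 0.116), Egr3 (1.28, adjusted p = 0.0913) and Nr4a1 (0.78, adjusted p = 0.0794) did not pass either. Nr4a2 (1.42, adjusted p = 0.0655) and Nr4a3 (3.13, adjusted p = 0.0515) had larger changes than without the covariate and also did not pass. The covariate, the mean log2 CPM of these markers, was 10.2 to 10.6 in KO and 8.39 to 10 in WT libraries. It was higher in every KO library than in every WT library, so this fit cannot fully separate it from genotype.

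**Figure D4:**
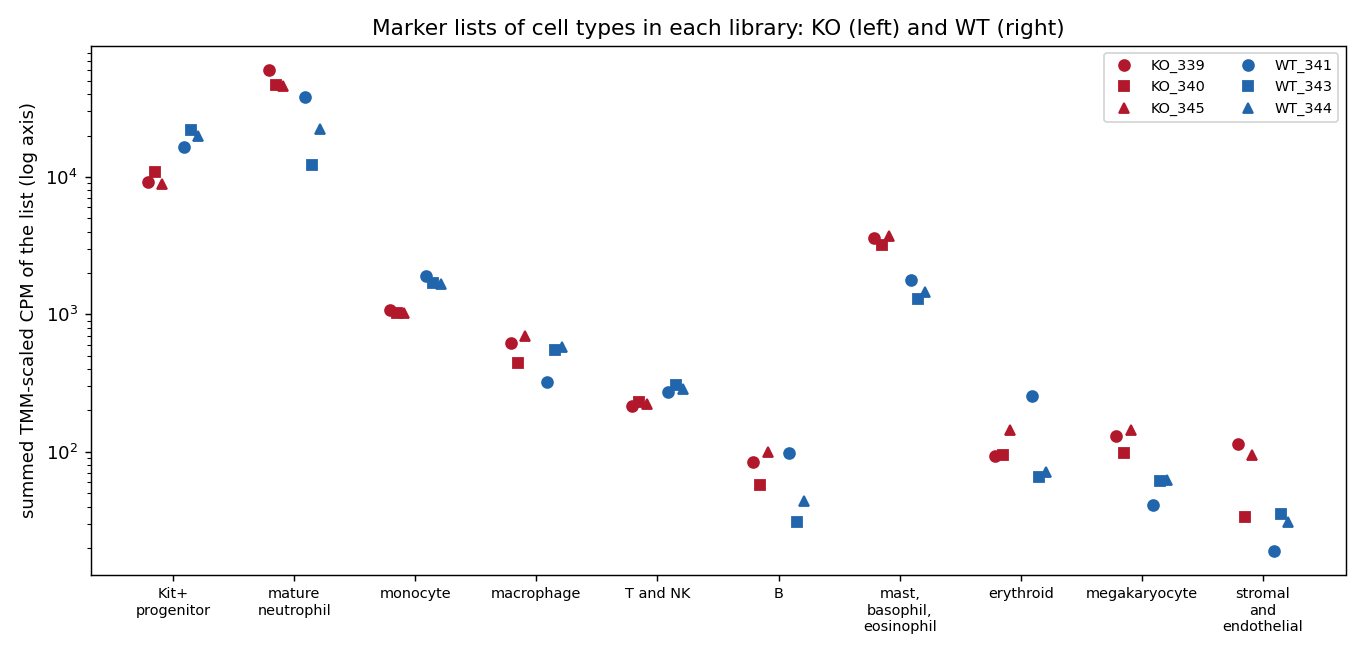
Summed TMM-scaled CPM of 10 marker lists in each library, on a log axis, with KO libraries (red) left of WT libraries (blue). Neutrophil, megakaryocyte and mast, basophil and eosinophil sums are higher in every KO library, and progenitor, monocyte and T and NK cell sums are lower. The sums weigh abundant genes most, and Kit, a small part of the progenitor sum, did not pass.

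Other early genes were read beside these 10. The count of each list here and below is to be read against 16.0% of all tested genes called higher and 19.9% called lower. Of the 8 AP-1 and ATF3 genes, 2 rose and 0 fell, with a median log2 change of 0.61. Junb, a JUN family member that limits myeloid proliferation, rose 2.70-fold to 176 CPM in KO, against 65.3 CPM in WT libraries (adjusted p = 0.00635, edgeR). The FOS relative Fosl2 rose 2.10-fold to 105 CPM in KO, against 49.9 CPM in WT libraries (adjusted p = 0.00635, edgeR). The classic serum-response gene Fos had 866 CPM in KO and 763 CPM in WT libraries, a log2 change of 0.18 ± 0.26 that did not pass (adjusted p = 0.608, edgeR), and the stress-induced Atf3 was at 0.06 ± 0.22 (adjusted p = 0.838, edgeR). Fos and Atf3 were singled out after their values were seen. Fosl1 (1.06, adjusted p = 0.0913) and Jund (0.70, adjusted p = 0.0927) did not pass.

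Of 41 tested genes in a wider list of immediate early genes, 17 rose and 1 fell, with a median log2 change of 0.55. Plk2, a polo-like kinase gene that is also a p53 target, rose 3.00-fold to 52.1 CPM in KO, against 17.3 CPM in WT libraries (adjusted p = 0.00168, edgeR). The growth arrest gene Gadd45g rose 3.80-fold to 23.3 CPM in KO, against 6.13 CPM in WT libraries (adjusted p = 0.00268). Gem, a small GTPase gene, rose 4.34-fold, with 30.4, 12.1 and 32.2 CPM in KO and 5.80, 5.55 and 5.88 CPM in WT libraries (adjusted p = 0.00584). Klf10, a TGF-beta early response gene, rose 1.51-fold (adjusted p = 0.00531). The member that fell was Pim1, a survival kinase gene downstream of cytokine receptors, with 99.1 CPM in KO and 159 CPM in WT libraries (log2 change -0.68 ± 0.16, adjusted p = 0.0186). Ier5l, a paralogue of Ier5, rose to 0.994, 1.23 and 1.07 CPM in KO libraries, against 0, 0.0759 and 0.220 CPM in WT libraries (adjusted p = 0.0207, edgeR).

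Feedback genes of the ERK pathway rose in 4 of 10 cases with 0 lower (median log2 change 0.55). Dusp6, the cytoplasmic ERK phosphatase, rose 2.09-fold to 187 CPM in KO, against 89.8 CPM in WT libraries (adjusted p = 0.00234, edgeR). The nuclear ERK phosphatase gene Dusp5 rose 2.40-fold to 11.7 CPM in KO, against 4.87 CPM in WT libraries (adjusted p = 0.00379). The receptor signalling inhibitors Spry1 (1.59-fold, adjusted p = 0.0201) and Spry4 (3.00-fold, adjusted p = 0.0136) also rose.

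Among genes for factors and kinases that act on early promoters, 3 of 24 rose and 1 fell. Of all tested genes, 16.0% rose and 19.9% fell. The median log2 change of these 24 was -0.04. Of these, Mef2a, a MADS box factor (log2 change 0.47 ± 0.09, adjusted p = 0.00903), the SRF coactivator gene Mkl1 (0.51 ± 0.16, adjusted p = 0.0411) and the ternary complex factor gene Elk1 (0.29 ± 0.09, adjusted p = 0.0474) rose. Rps6ka3, the ERK-activated kinase RSK2, fell by 0.68 on the log2 scale (adjusted p = 0.0157, edgeR). Of the 8 tested partners of the EGR, NR4A and IER proteins, Nab2, an EGR corepressor whose gene EGR factors also induce, rose 1.74-fold to 7.66 CPM in KO, against 4.40 CPM in WT libraries (adjusted p = 0.0364, edgeR). Rxrb, a retinoid X receptor of the family that pairs with Nr4a1 and Nr4a2, fell by 0.45 on the log2 scale (adjusted p = 0.00765, edgeR). Rxra (0.49 ± 0.21, adjusted p = 0.108) and the coactivator gene Crebbp (0.15 ± 0.08, adjusted p = 0.170) did not pass. Both passed with upper-quartile factors (adjusted p = 0.0491 and 0.0334, edgeR), beside 22.0% of all genes called higher. Rxra also passed with the sex covariate (0.67, adjusted p = 0.0264) and without WT_344 (0.72, adjusted p = 0.0432, edgeR). Crebbp was at the threshold with library totals (adjusted p = 0.05, edgeR).

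Part of these calls changed when single libraries were left out, as did calls over all tested genes. Without any single library but WT_341, 6.54% to 10.7% of all genes were called higher, against 16.0% with all 6. Without WT_341 the share was 22.1%. The wider list had 10 higher calls without KO_339 or KO_345 and 11 without WT_343, and the ERK feedback list had 2 without KO_339. The upstream list of 24 genes had 1 higher call without KO_339, KO_340, KO_345 or WT_344. It had 7 higher with upper-quartile factors, beside 22.0% of all genes, and 7 lower without WT_341, beside 26.6%. Elk1 was lost without any single library (adjusted p = 0.0515 to 0.128), Mkl1 without any KO library or WT_344 (0.0559 to 0.113), and Nab2 without any single library but KO_340 (0.0567 to 0.0942). Spry1 was lost without any KO library or WT_343 (0.0532 to 0.061) and Spry4 without KO_339 (0.0531). Pim1 was lost without KO_339, KO_340 or WT_344 (0.0535 to 0.071), Rps6ka3 without KO_339, KO_345 or WT_344 (0.0504 to 0.0617), and Ier5l without any KO library or WT_343 (0.0531 to 0.0695). Fosl1 passed without WT_341 (1.35, adjusted p = 0.0467, edgeR) and with sample quality weights in limma-voom (1.05, adjusted p = 0.019). Fosl1 and Jund passed in DESeq2 (adjusted p = 0.0459 and 0.0323). With the neutrophil covariate Junb (1.54), Fosl2 (0.76), Gem (1.99), Ier5l (4.57), Pim1 (-0.19), Spry1 (0.81), Mef2a (0.35), Mkl1 (0.12), Elk1 (0.28), Rps6ka3 (-0.20), Nab2 (0.87) and Rxrb (-0.30) no longer passed, with the log2 change in that fit in parentheses, while Plk2, Gadd45g, Klf10, Dusp5, Dusp6 and Spry4 did.

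**Figure D5:**
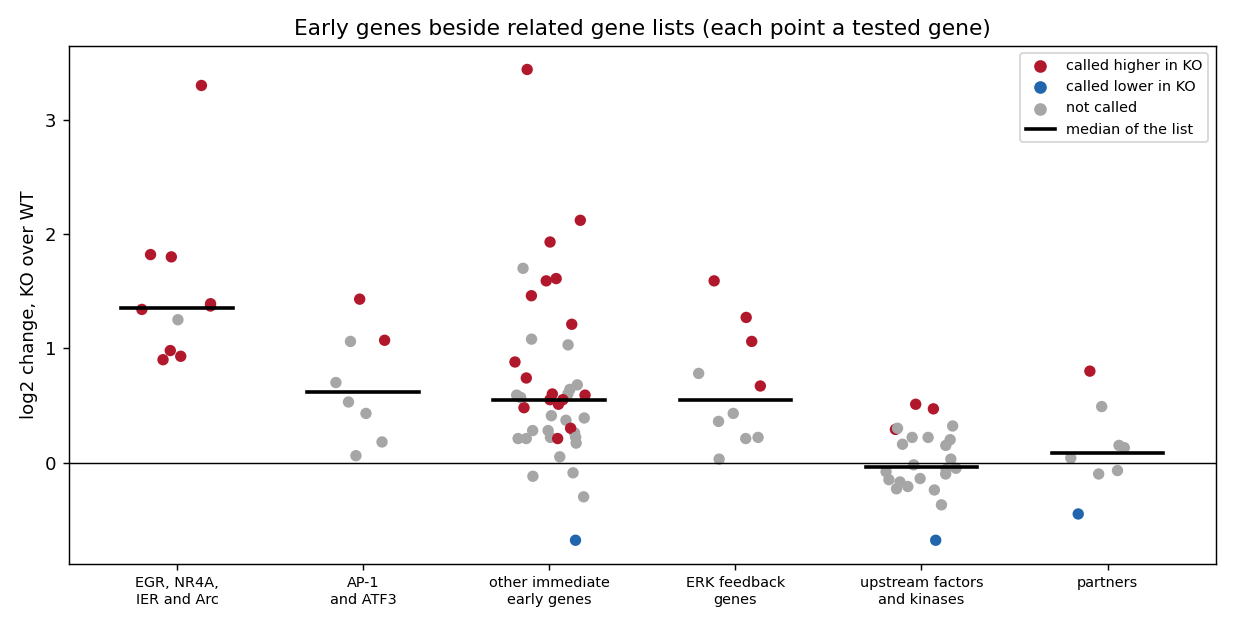
Log2 change (KO over WT) of each tested gene in the 10 early genes and in 5 related lists, red where called higher in KO, blue where called lower and grey where not called, with the median of each list as a bar. The medians are 1.36 for the 10 early genes, 0.61, 0.55 and 0.55 for the other early and feedback lists, and -0.04 and 0.09 for upstream factors and partners.

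The tested genes whose pattern over the 6 libraries was most like that of 3 of the early genes were found by the root mean square difference of centred log2 CPM. For Egr1 these included Slc6a12 (0.18) and the antiproliferative early gene Btg2 (0.19), both nearer than any of the other 9 early genes, of which Nr4a1 and Ier2 were nearest (0.49 each). For Nr4a1 they were Cdh23, the urokinase receptor gene Plaur and the tetraspanin gene Cd9 (0.10 each), and for Ier2 they were Ccno (0.13), Arrdc3 (0.14) and Ceacam1 (0.17). Among the early genes, Ier5 was the nearest to both Nr4a1 and Ier2 (0.24 each). These distances rest on 6 libraries that share the genotype difference. The like genes are the closest picked from all named genes that reached the CPM limit. That they lie nearer than 9 given genes was therefore likely beforehand.

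The 10 genes lie on 9 chromosomes, with Nr4a1 and Arc both on chromosome 15 (101254269 to 101274795, forward strand, and 74669083 to 74672570, reverse strand). In GENCODE M21 no other annotated gene overlapped any of them on either strand. They are compact, with spans of 1240 bp (Ier3) to 41295 bp (Nr4a3), and 9 of 10 were shorter than the median tested protein-coding gene (23276 bp) and 7 shorter than its lower quartile (9986 bp). Of their 20 nearest tested protein-coding neighbours, 3 rose, 1 fell and 16 did not pass, with a median log2 change of -0.01, beside the 16.0% of all tested genes called higher and 19.9% called lower. Reep2, next to Egr1 at 12360 bp, rose (1.37 ± 0.29, adjusted p = 0.0132), as did Pebp4 next to Egr3 (2.09 ± 0.63, adjusted p = 0.0376) and Ptp4a3 on the side of Arc at 910317 bp (0.79 ± 0.10, adjusted p = 0.00356). Sec61b, at 561911 bp from Nr4a3, fell by 0.46 on the log2 scale (adjusted p = 0.0369, edgeR). Reep2 was lost without KO_339 (adjusted p = 0.0504), Pebp4 without any single library but WT_341 (0.0507 to 0.113), and Sec61b likewise (0.0545 to 0.116), so the calls beside Egr1, Egr3 and Nr4a3 depend on single libraries. With the neutrophil covariate Reep2 (adjusted p = 0.141), Pebp4 (0.51) and Sec61b (0.621) did not pass, while Ptp4a3 did (0.0275, edgeR). Pebp4 was also lost in DESeq2 (0.0725), with the sex covariate (0.0657) and with no low-count filter (0.0512). Sec61b was also lost with upper-quartile factors (0.0805), library totals (0.0601), the filter of 1 CPM (0.0557) and the sex covariate (0.0775). The neighbours that lie closest to an early gene, at 307 bp from Ier3 and 2323 bp from Egr2, did not pass.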

How the data were processed

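RNA-seq libraries of 6 mice were analysed. Per the labels' protocols, total RNA was isolated with TRIzol and made into strand-specific Illumina TruSeq messenger RNA libraries, sequenced as paired reads of 75 bp. The authors deposited raw read counts per gene symbol. FastQC, Trimmomatic, STAR and HTSeq are named in the submitters' processing notes, with the build mm10. The sources used here do not give the annotation, the strand setting or the handling of multi-mapped reads.

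The gene test was the quasi-likelihood test of edgeR 4.0.16 under R 4.3.3 (filterByExpr with minimum count 10 and minimum total 15, TMM, robust glmQLFit, glmQLFTest, Benjamini-Hochberg over 15742 genes, threshold 0.05). The test was checked on simulated data. Standard errors are the log2 change divided by the square root of F. Alternatives used limma 3.58.1 and DESeq2 1.42.0. Log2 CPM carry a prior count of 2. Annotation was GENCODE M21 on GRCm38, and promoters were RefSeq's. Library pairs had a chi-square per degree of freedom of 51.3 to 985, so no library repeats another. Named genes are the 10 members, Ints11, up to 4 genes per list with the smallest adjusted p, the 3 genes most like Egr1, Nr4a1 and Ier2 whose mean reached 5 CPM, and marker lists by their sums. A gene that this rule names beside Egr1 is not reported here. Pim1, Ier5l, Egr4, Fos, Atf3 and the neighbours were added after their values were seen, as was the test of a sex difference. The members and lists were chosen with earlier results of these data known.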

Additional observations from a re-analysis of the deposited data

How the results depend on the processing

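All 10 early genes had a positive log2 change in each of the 15 alternative fits. In the fits without a covariate this largely follows from every KO library lying above every WT library and is no separate check. With other scalings, filters, tools or the sex covariate, 8 to 10 early genes were called higher, beside 12.0% to 25.5% of all genes. Leaving out single libraries gave 6 to 9 (6.54% to 22.1% of all genes), and the mature neutrophil covariate gave 3 (3.39%). The count called lower was 0 throughout, beside 5.72% to 27.9% of all genes. Of all tested genes, 2520 were called higher and 3139 lower. With sample quality weights 4009 were higher, with upper-quartile factors 1931 were lower, and 534 were higher and 901 lower under the neutrophil covariate. Leaving out single libraries gave 1039 to 3573 higher and 1263 to 4306 lower. Without KO_339, KO_340, KO_345 or WT_344 these counts lay more than 1.5-fold under those of all 6 libraries. Scaling moved the median log2 change over all genes to 0.15 with upper-quartile factors (3458 higher calls) and to 0.11 with library totals (3151 higher, 2212 lower), against 0.01 with TMM. Genes not called at the outset changed sign as follows. With the neutrophil covariate Fosl1 (-0.01), Btg2 (-0.07) and Fos (-0.47) did, Fos also with the sex covariate (-0.02) and when single libraries were left out (-0.04 to 0.44), and Atf3 with sample quality weights (-0.18) and when single libraries were left out (-0.15 to 0.25). In the fit with the neutrophil covariate 3.39% of all tested genes were called higher, against 16.0% without it. There the AP-1 list had 0 higher calls (2 without the covariate) and the wider early list 5 (17 without the covariate). The ERK feedback list had 4 in both fits, but not the same 4. Spry1 was lost with the covariate (adjusted p = 0.0906, edgeR) and another gene of the list was gained. The cause was not tested. No paired analysis was possible because the genotypes share no replicate numbers. Depth was lowest for Arc (15 counts in its lowest library) and Nr4a3 (21 counts).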
